A study of Mus musculus with 6 samples.

Results

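Antisense RNAs and the protein-coding genes they overlap were followed in activated group 2 innate lymphoid cells (ILC2s), tissue-resident lymphocytes that answer the alarm cytokine IL-33 with type 2 cytokines. The members were chosen by type and level: rows typed antisense in the deposited gene table whose mean over the 6 libraries was at least 1 CPM, a count scaled to the total of its library (counts per 1e6), leaving out small nucleolar RNA host genes. They numbered 81 of 525 antisense rows and of 16588 rows in all, and 78 of them overlapped at least 1 protein_coding row, which gave 93 pairs with 93 genes. The mean levels that selected them are given as description only. The choice used the mean over both genotypes and not the difference between them.

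Lung ILC2s came from 3 samples of C57BL/6 mice (wild type, WT) and 3 samples labelled Cnr2 KO, and Cnr2 encodes the cannabinoid receptor CB2. Both groups had been given IL-33, at 0.5 µg through the nose on 3 consecutive days, were isolated on day 4 and then kept in culture for 18 h. Libraries were made from 10 pg of RNA each. The labels give no strain or deleted exon for the Cnr2 KO samples. They do not say whether replicates were separate animals or cultures, so p-values reflect the spread among these 6 samples alone, and that spread may be technical. The series title names adipose tissue, whereas all 6 samples are labelled lung. Library totals ran from 17867541 to 129617689 counts, with WT replicate 2 deepest, so that 1 CPM stood for 17.9 to 19.4 counts in 5 libraries and for 130 counts in that one. Cnr2 itself went against the label, at 76, 503 and 60 counts in WT, and 147, 139 and 135 counts in the other group, and its log2 fold change was 1.01 (edgeR adjusted p = 2.11e-05). The group is therefore named throughout by its label. All 13 listed ILC2 marker genes had a row, and their summed level was 14266 to 14815 CPM in WT against 13334 to 14433 CPM in Cnr2 KO-labelled libraries, a sum led by Il5 and Il2ra. By gene, 9 of the 13 were higher and 3 lower (Il2ra, Il13 and Areg), beside 33.1% higher and 33.2% lower over all genes tested. Among markers of other cell types, Epcam was higher by 2.08 on the log2 scale, Xcr1 by 1.14 and Cd79b by 0.61, and Pecam1 fell from 109 ± 4.47 to 39.7 ± 0.569 CPM. Flt3 and Zbtb46, listed with Xcr1 as dendritic markers, were too scarce to be tested, and Zbtb46 went from 0.646 to 0.246 CPM. Scarcer called markers moved both ways. Cd68, Hba-a1, Cpa3 and Fcer1a had log2 fold changes of 1.20, 2.62, 1.15 and 4.99, and Mcpt8 of −1.79. Fcer1a had 0, 4 and 1 counts in WT against 20, 13 and 26 in Cnr2 KO-labelled libraries. Il22 had 21, 214 and 27 counts in WT against 0, 0 and 0, so its log2 fold change of −8.75 is not a measured size. Sftpc, Scgb1a1, Clec9a, Ms4a1 and Cdh5 had no row, and the part of other cells in the results below was not tested. In bulk RNA, fewer cells of a type and less RNA per cell cannot be told apart.

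An antisense RNA is transcribed from the strand opposite to that of a gene at the same place. Such RNAs can start near the promoter of the gene and run away from or into it, can lie inside an intron, or can meet the 3′ end of the gene. Well-studied RNAs typed antisense include Kcnq1ot1, the long RNA of an imprinted domain, and Flicr. The latter overlaps Foxp3 on the same strand and Ppp1r3f on the opposite strand. The kit used here for cDNA does not mark strand, and the strand setting of the counting is not given in the sources used here. Reads from exons that a pair shares cannot be told apart. The strand of a read that lies inside a gene but outside its exons is not known either.

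The start regions of 5 members called different between the groups are shown. They are the called members whose window holds no exon base of a protein-coding gene, so they need not stand for the others. Their calls go in both directions. Their CG dinucleotide counts, a simple measure of promoter type, run from 2 to 30. The windows are from RefSeq on GRCm38.p6, 250 bases before to 50 bases after the annotated start, written 5′ to 3′ on the strand of the antisense RNA, with CG in capitals. Gm20658 (chr12:116111664-116111963, minus strand) held 2 CG, and its RefSeq start lies 26935 bp from the start in the GENCODE annotation. Gm4610 (chr3:122391947-122392246, minus strand) held 8, 5830432E09Rik (chr7:135652265-135652564, minus strand) 7, Gm13012 (chr4:137883913-137884212, minus strand) 6 and Zfp335os (chr2:164911183-164911482, plus strand) 30.
Gm20658: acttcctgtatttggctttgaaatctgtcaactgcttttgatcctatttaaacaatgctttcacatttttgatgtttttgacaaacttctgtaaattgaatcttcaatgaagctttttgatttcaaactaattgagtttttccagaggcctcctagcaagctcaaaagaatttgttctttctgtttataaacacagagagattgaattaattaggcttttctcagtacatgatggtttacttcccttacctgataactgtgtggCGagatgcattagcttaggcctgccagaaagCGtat
Gm4610: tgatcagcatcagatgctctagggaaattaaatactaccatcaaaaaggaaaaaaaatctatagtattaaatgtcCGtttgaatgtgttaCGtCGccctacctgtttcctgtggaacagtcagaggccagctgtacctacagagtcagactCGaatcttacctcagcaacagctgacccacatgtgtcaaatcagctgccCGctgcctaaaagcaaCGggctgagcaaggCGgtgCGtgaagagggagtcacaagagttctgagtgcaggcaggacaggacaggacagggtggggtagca
5830432E09Rik: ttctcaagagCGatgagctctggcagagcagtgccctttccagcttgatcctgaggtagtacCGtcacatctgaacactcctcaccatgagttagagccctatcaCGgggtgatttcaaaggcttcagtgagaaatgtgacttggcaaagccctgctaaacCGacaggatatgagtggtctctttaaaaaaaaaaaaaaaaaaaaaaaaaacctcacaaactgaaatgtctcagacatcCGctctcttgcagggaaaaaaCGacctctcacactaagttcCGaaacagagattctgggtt
Gm13012: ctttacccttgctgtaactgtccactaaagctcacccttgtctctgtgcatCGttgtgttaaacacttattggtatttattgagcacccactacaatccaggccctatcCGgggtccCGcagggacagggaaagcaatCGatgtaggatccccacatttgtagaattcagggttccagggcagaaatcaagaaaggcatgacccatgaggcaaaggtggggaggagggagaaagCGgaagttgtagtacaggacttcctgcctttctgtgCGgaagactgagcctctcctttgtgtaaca
Zfp335os: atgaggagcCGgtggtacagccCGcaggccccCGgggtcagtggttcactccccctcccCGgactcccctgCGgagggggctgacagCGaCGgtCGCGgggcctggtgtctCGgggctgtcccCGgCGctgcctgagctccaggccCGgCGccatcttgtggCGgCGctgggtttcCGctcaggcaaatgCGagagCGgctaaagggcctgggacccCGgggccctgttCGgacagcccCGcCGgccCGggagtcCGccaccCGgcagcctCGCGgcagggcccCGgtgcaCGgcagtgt

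RefSeq windows were at hand for 43 of the 81 members, 46 windows in all. Their median CG count was 20.5 and their median GC content 60.5%, against 7 and 52.7% over all 32851 windows of the same length, searched as CG, which reads the same on both strands. Members that only ran start to start with their gene had a median of 26 CG (13 windows), those that lay only inside a gene 8 (14 windows) and those that only met a gene end to end 27 (7 windows). The 4 windows of low CG content above belong to antisense RNAs inside a gene, and that of Zfp335os to one that starts beside Zfp335. By call, the median was 18 in members higher in Cnr2 KO-labelled libraries (9 windows), 28 in lower ones (6) and 21 in members not called (31).

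By position in GENCODE M21, the arrangement of the 93 pairs was start to start in 34, antisense inside the gene in 27, end to end in 24 and gene inside the antisense RNA in 5. The remaining 3 pairs lay on the same strand (AC113595.1 with Apobec3, 4930515G01Rik with Git2 and Flicr with Foxp3). Exons of the 2 genes overlapped in 78 pairs and not in 15. The median exon length was 2765 bp in the members and 5300 bp in the overlapped genes, and 23 members had a single exon block. Kcnq1ot1, Map2k3os and 2810001G20Rik overlapped no protein_coding row. Kcnq1ot1 lies within Kcnq1 on the annotation, but Kcnq1 has no row in the table.

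Counts in the table need not be whole, and 45 of the 66 members with exon overlap had at least 1 count more than 0.02 from a whole number, against 0 of the 12 members with a partner but no exon overlap. Where 1 protein-coding gene was the only overlapping row (64 members), 109 of 157 such fractional counts (69.4%) added up to a whole number with the count of that gene in the same library. With the nearest gene that does not overlap, 2 of them (1.27%) did. How the counting divided reads between overlapping rows is not given in the sources used here, and the values of members with exon overlap depend on it.

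Most members were scarce. The mean lay between 1 and 2 CPM in 47 members and reached 10 CPM in 8. The level in all members together was 321, 332 and 309 CPM in WT against 361, 345 and 374 CPM in Cnr2 KO-labelled libraries, with no overlap between the groups. Without Brip1os it was 257.4, 260.2 and 243.1 against 258.7, 247.3 and 283.9 CPM, and over the 59 members with at least 1 CPM in each group 303, 310 and 285 against 319, 307 and 332 CPM. In both of these sums the groups overlapped. Just inside the threshold were 4930478L05Rik at 1.0132, Etohd2 at 1.0014 and 3110045C21Rik at 1.0001 CPM. Just outside were Gm26740 at 0.9931, Phtf1os at 0.9914 and 4732440D04Rik at 0.9860 CPM. Of the members, 59 reached 1 CPM in both groups, 6 only in WT and 16 only in the Cnr2 KO-labelled libraries, and members of the last kinds passed the threshold through 1 group.

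Levels below are CPM after TMM scaling, an adjustment for library composition, as mean ± SD of 3 libraries. Brip1os, which spans Ints2 and meets Med13, had the highest CPM of the members, not corrected for length, at 67.4 ± 4.42 in WT. Gm17590, inside Cdk6, was at 25.4 ± 0.388 and Kcnq1ot1 at 24.4 ± 4.75 CPM there. Rab10os, AC113595.1, 4931406G06Rik, Gt(ROSA)26Sor and Gm44851 (beside Furin) lay between 10.7 and 16.2 CPM in WT. Among the 8, 2 were higher and 2 lower in Cnr2 KO-labelled libraries, and 4 did not pass the test.

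Per kilobase of exon, an antisense RNA stood at a median of 10.8% of the level of its gene in WT against 9.70% in Cnr2 KO-labelled libraries, over 92 pairs. In WT it was above the gene in 17 of these 92 pairs and under 1% of it in 11. The pair of 1500015A07Rik and Afap1l1, at 7241% in WT, was left out because Afap1l1 had no counts in the other group. Brip1os was at 147% of Ints2, a subunit of the Integrator complex, and at 241% of Med13, a subunit of the Mediator kinase module. At the other end Gm12214 stood at 0.198% of Il5, which encodes the type 2 cytokine IL-5. All exon bases of Gm12214 lie in exons of Il5, so reads of the 2 cannot be told apart.

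**Figure D1:**
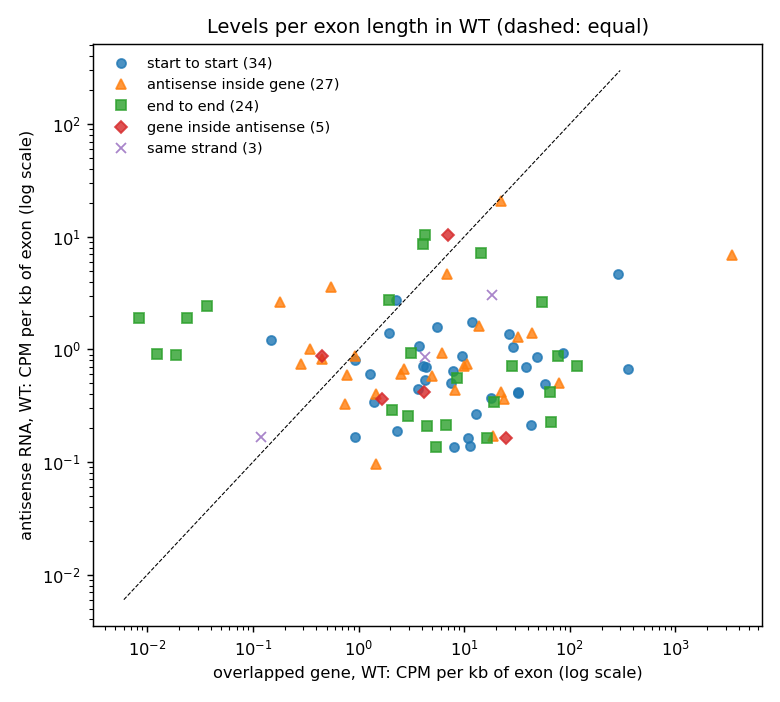
Level of each antisense RNA (vertical axis) against the gene it overlaps (horizontal axis) in WT, as CPM per kilobase of exon on log axes, 1 point per pair, with symbols by arrangement. Most points lie below the dashed line of equal levels. Of the 92 pairs with a gene level in both groups, 17 lie above it. So does 1500015A07Rik with Afap1l1, which had no counts in Cnr2 KO-labelled libraries.

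The genotype labels were compared with edgeR's quasi-likelihood test over all 12150 genes that passed a filter on low counts, with a call at an adjusted p under 0.05 (Benjamini-Hochberg, over all genes). All 81 members were tested. In the libraries labelled Cnr2 KO, 19 members were higher, 10 were lower and 52 were not called. That is 35.8% of members called, against 66.3% of all genes tested (33.1% higher and 33.2% lower). The median SE of the log2 fold change was 0.32 in members against 0.09 over all genes, while the median size of the log2 fold change was 0.40 in both. At least 2-fold, 12 of the 81 members were higher and 6 lower, against 8.89% and 7.47% of all genes. The 12 include Gm20658, 5830468F06Rik, Gm4610, Gm49747, Flicr, 1110046J04Rik and 2610020C07Rik, under 1 CPM in WT and members only through the other group. The 6 include D330050I16Rik and Gm27177, members only through WT. These counts therefore depend in part on how members were chosen. In 32 members the 2 groups did not overlap, 23 higher and 9 lower (39.5%, against 68.9% of all genes, 34.1% higher and 34.8% lower). Of the called members, 11 higher and 8 lower ones had at least 1 CPM in both groups. The median log2 fold change was 0.12 in members and 0.01 in all genes.

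**Figure D2:**
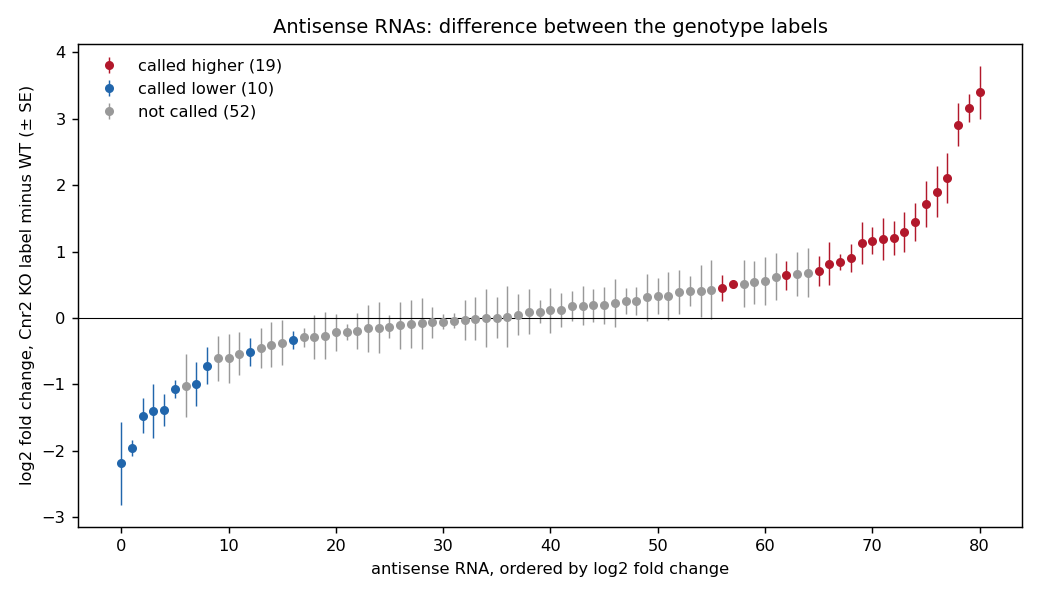
Log2 fold change (Cnr2 KO-labelled libraries minus WT) of the 81 antisense RNAs in rank order, with bars of 1 SE, coloured by the edgeR call. Values run from −2.19 to 3.40, and 52 members in the middle were not called.

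The 3 largest increases were in antisense RNAs that lie inside a gene, share no exon base with it, and whose gene rose as well. All 3 had under 1 CPM in WT and were members only through their level in the other group, so their place at the top is a description. Since strand is not marked, the lack of shared exon bases does not show which strand their reads came from. Gm20658 (chromosome 12, 116102769 to 116138648, GRCm38, minus strand) lies within Vipr2, the gene of a receptor for vasoactive intestinal peptide. It had 4, 29 and 7 counts in WT against 53, 61 and 36 in Cnr2 KO-labelled libraries, or 0.21, 0.225 and 0.37 CPM against 2.72, 3.26 and 2.00 CPM. All values of the second group lay above all of the first, with a log2 fold change of 3.40 (SE 0.40, adjusted p = 4.15e-07 by edgeR). Vipr2 went from 6.54 ± 1.39 to 18.1 ± 1.26 CPM, a log2 fold change of 1.47.

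5830468F06Rik (chromosome 8, 15015092 to 15018907, minus strand) lies within Kbtbd11, which encodes a BTB and kelch domain protein. Its level was 1.05, 0.906 and 0.74 CPM in WT against 8.37, 8.33 and 7.6 CPM in Cnr2 KO-labelled libraries. The groups were far apart, with a log2 fold change of 3.16 (SE 0.22, adjusted p = 1.83e-10 by edgeR). Kbtbd11 rose from 3.19 ± 0.365 to 18.8 ± 2.05 CPM, by 2.58 on the log2 scale. Per kilobase of exon the antisense RNA was at 182% of the gene in WT, and 278% in the other group. The ratio of their counts differed by 0.60 on the log2 scale, which was not called (limma adjusted p = 0.0775).

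Gm4610 (chromosome 3, 122377097 to 122391811, minus strand) lies within Bcar3, which encodes an adaptor of integrin and growth factor signalling. It was at 0.578, 0.627 and 0.37 CPM in WT against 5.44, 2.99 and 4.21 CPM in Cnr2 KO-labelled libraries, again with no overlap. Its log2 fold change was 2.91 (SE 0.32, adjusted p = 2.11e-07 by edgeR), and that of Bcar3 was 1.28, from 27.7 ± 1.25 to 67.5 ± 5.42 CPM. A930006L05Rik within Zbtb38, a zinc finger gene, and Arhgap27os3 within Arhgap27, a GTPase-activating protein, were the other called pairs of this kind, with antisense log2 fold changes of 1.19 and 0.45 and gene values of 0.16 and 0.50. The call of Zbtb38 was lost without any 1 of 4 of the libraries (WT replicates 2 and 3 and replicates 1 and 2 of the other group).

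**Figure D3:**
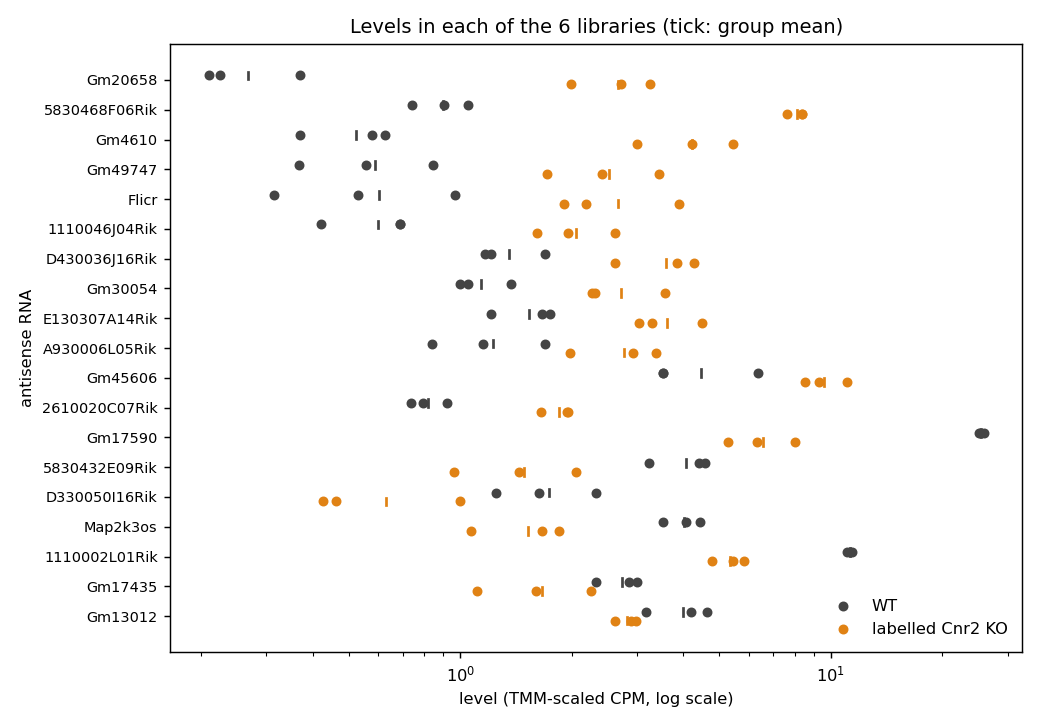
Level of the called members with groups that do not overlap, up to 12 per direction by size of change (TMM-scaled CPM, log axis), 1 point per library and a tick at each group mean. The 12 upper rows are higher in Cnr2 KO-labelled libraries and the 7 lower rows are lower there.

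Among members sharing exon bases with their gene, 1110046J04Rik inside Serpinb6a, an intracellular serine protease inhibitor, was at 0.42, 0.689 and 0.687 CPM in WT against 1.95, 2.62 and 1.61 CPM in Cnr2 KO-labelled libraries. The groups did not overlap, and the log2 fold changes were 1.72 (SE 0.35, adjusted p = 0.000285 by edgeR) for the antisense RNA and 0.86 for Serpinb6a. With a WT mean under 1 CPM, 1110046J04Rik was a member only through the other group. D430036J16Rik starts beside Htr1b, a serotonin receptor gene, and both rose, by 1.44 and 1.21 on the log2 scale. Gm45606, beside the amino acid transporter gene Slc43a2, went from 4.46 ± 1.63 to 9.61 ± 1.3 CPM, a log2 fold change of 1.16, and Slc43a2 had one of 0.71. Gm30054 inside Fam149b had a log2 fold change of 1.29, and Fam149b one of 0.23. The call of Fam149b was lost without WT replicate 1, without replicate 1 or 2 of the other group, and under DESeq2.

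Flicr (X chromosome, 7573600 to 7581027, plus strand) starts beside Ppp1r3f, a regulatory subunit gene of protein phosphatase 1, and overlaps Foxp3, the defining transcription factor of regulatory T cells, on the same strand. Flicr shares 853 exon bases with Foxp3 and 310 with Ppp1r3f, and reads from those bases cannot be told apart. It had 0.315, 0.968 and 0.528 CPM in WT against 1.9, 2.19 and 3.88 CPM in Cnr2 KO-labelled libraries. These values did not overlap, with a log2 fold change of 1.90 (SE 0.38, adjusted p = 0.000248 by edgeR), which was 2.63 without WT replicate 2. Flicr had a WT mean under 1 CPM and was a member only through the other group, so its place among the largest rises is a description. Foxp3 was at 0.893, 0.256 and 0.476 CPM against 1.13, 0.855 and 1.83 CPM, groups that overlap, with a log2 fold change of 1.48 that lost its call without WT replicate 2 (0.88, adjusted p = 0.153) or without replicate 3 of the other group. Ppp1r3f rose from 4.79 ± 0.535 to 17.4 ± 2.04 CPM, a log2 fold change of 1.91. The 4 of 8 listed T cell markers that had a row summed to 7.25 to 7.66 CPM in WT against 18.5 to 22.1 CPM in Cnr2 KO-labelled libraries, and Cd4 and Cd8a had no row. They did not move together: Cd3g (4.65 ± 0.627 to 17.2 ± 1.41 CPM) and Cd3e were higher, Trac was lower (1.48 ± 0.282 to 0.464 ± 0.204 CPM) and Cd3d was too scarce to be tested. The part of such cells in the Flicr result was not tested.

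Of the members that fell, Gm17590 (chromosome 5, 3472861 to 3480873, minus strand) inside Cdk6, a kinase gene of the G1 phase, had the most counts. It stood at 25.3, 25.8 and 25.1 CPM in WT against 8.01, 5.29 and 6.32 CPM in Cnr2 KO-labelled libraries. The WT values lay close together and well above the others, and the log2 fold change was −1.96 (SE 0.12, adjusted p = 5.00e-11 by edgeR). Cdk6 fell less, from 312 ± 5.27 to 186 ± 8.6 CPM, a log2 fold change of −0.74. Per kilobase of exon Gm17590 stood at 92.6% of Cdk6 in WT, and at 39.8% in the other group. The 2 share 368 exon bases, and reads from those bases cannot be told apart.

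D330050I16Rik starts beside Sart1, a splicing factor gene, and was at 1.63, 1.25 and 2.32 CPM in WT against 0.462, 0.427 and 0.998 CPM in Cnr2 KO-labelled libraries. The groups did not overlap, with a log2 fold change of −1.40 (SE 0.41, adjusted p = 0.0053 by edgeR), and Sart1 had one of −0.22. D330050I16Rik was under 1 CPM in the other group and was a member only through WT. Map2k3os, which lies 166 bp from Map2k3, a MAP kinase kinase gene, was at 3.52, 4.06 and 4.44 CPM against 1.85, 1.07 and 1.66 CPM. Its log2 fold change was −1.39 and that of Map2k3 was −0.14, both called.

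Gm17435 at Med26 (a Mediator subunit) and Gm13012 inside Ece1 (endothelin-converting enzyme) fell by 0.72 and 0.51 on the log2 scale, while Med26 and Ece1 were not called, at −0.17 and −0.15. The call of Gm17435 was lost without WT replicate 1 or 2 or replicate 2 or 3 of the other group (adjusted p up to 0.124), and that of Gm13012 without any 1 library other than WT replicate 3 (up to 0.134). DESeq2 called neither (adjusted p = 0.0593 and 0.0871), and the replicate block in edgeR did not call Gm13012 (0.0521). Of the called members, 3 had groups that overlap, namely Gt(ROSA)26Sor, Zfp335os and Gm27177. Gt(ROSA)26Sor, the noncoding RNA of the Rosa26 locus, was at 10.2, 14.7 and 11.5 CPM against 9.45, 9.51 and 10.6 CPM, and without WT replicate 2 its adjusted p was 0.414. Its call was also lost without replicate 1 or 2 of the other group, and under DESeq2 (adjusted p = 0.0866).

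Of the 93 overlapped genes 88 were tested, and 33 were higher and 28 lower (69.3%, near the 66.3% of all genes). Among the 88 pairs in which both genes were tested, both were called in the same direction in 18 pairs (20.5%, against 24.4% of the 1807 overlapping pairs of any kind) and in opposite directions in 7 (7.95%, against 15%). In 36 pairs only the gene was called, in 7 only the antisense RNA and in 20 neither. The remaining 5 of the 93 pairs had a gene too scarce to be tested. Across the 88 pairs, the log2 fold changes correlated with r = 0.47 and rho = 0.33, and 60.2% had the same sign. Over all 1807 overlapping pairs the values were r = 0.32, rho = 0.23 and 58.3%. These are descriptions, since pairs share the 6 libraries and, where exons overlap, reads. Without Gm20658, 5830468F06Rik and Gm4610 the values were r = 0.32 and rho = 0.25 (85 pairs).

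By arrangement, r was 0.72 over the 27 pairs with the antisense RNA inside the gene, 0.33 over 19 end to end pairs and 0.23 over 34 start to start pairs. The same 3 members all lie inside a gene, and without them r was 0.39 over the 24 pairs of that kind. Of the 27 pairs inside a gene, 9 were called in the same direction and 1 in opposite directions. The counts were 4 and 2 of the 34 start to start pairs, and 4 and 3 of the 19 end to end pairs. Over all 1807 overlapping pairs the shares were 24.4% and 15%. Of the 15 pairs without exon overlap, 5 went the same way, among them those of Gm20658, 5830468F06Rik and Gm4610. In these 15 pairs 0 went opposite ways under edgeR, DESeq2 or limma-voom or at an unadjusted p under 0.05. An opposite call needs both genes called, so few pairs could give one. Over those 15 pairs r was 0.78, but 0.08 over the 12 that remain without the 3 members named above. Between a member and the nearest protein-coding gene that it does not overlap, a median of 13394.5 bp away, r was 0.17 (70 members). For other kinds of row that overlap a protein_coding gene, r was 0.70 for sense_intronic RNAs and 0.60 for bidirectional_promoter_lncRNA rows (16 pairs each). It was 0.50 for antisense rows that were not members (53 pairs) and 0.16 for 1310 pairs of 2 protein_coding genes. The difference between these values was not tested.

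**Figure D4:**
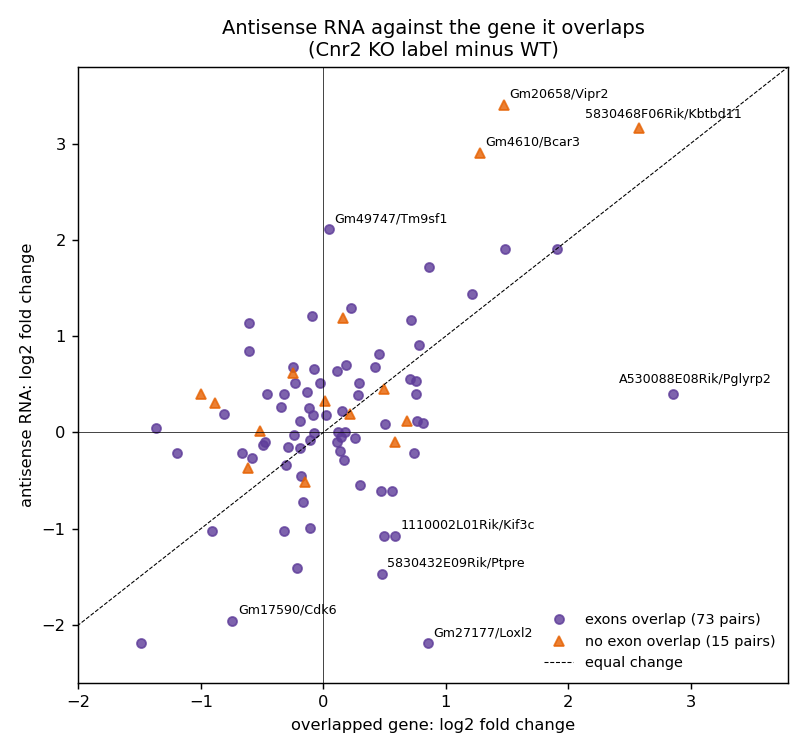
Log2 fold change (Cnr2 KO-labelled libraries minus WT) of each antisense RNA against that of the gene it overlaps, for 88 pairs, with triangles for the 15 pairs without exon overlap and a few pairs named in the text labelled. The 3 highest antisense RNAs are triangles at the upper right, and the pairs of opposite direction lie at the upper left and lower right.

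The ratio of antisense to gene counts within a library does not depend, apart from the pseudocount, on the scaling between libraries, and its log2 value was compared between the groups with limma (pseudocount 0.5). It was higher in Cnr2 KO-labelled libraries in 16 of 88 pairs and lower in 10 (29.5% called, against 45.7% of the 1807 overlapping pairs). Over the 141 tested pairs of any antisense row and a protein_coding row, which include these, 17% were higher and 9.22% lower.

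The largest rise in ratio was that of Gm49747, which starts beside Tm9sf1, a gene of a transmembrane protein of the TM9 superfamily. It had 0.221, 0.342 and 0.485 counts per 100 counts of Tm9sf1 in WT against 1.43, 0.985 and 1.93 in Cnr2 KO-labelled libraries. The values did not overlap, with a log2 ratio difference of 2.04 (SE 0.40, limma adjusted p = 0.000928). With a WT mean under 1 CPM, Gm49747 was a member only through the other group, so its place at the top is a description. Gm49747 itself rose by 2.11 on the log2 scale, from 0.59 ± 0.241 to 2.52 ± 0.869 CPM, while Tm9sf1 was at 168 ± 5.8 and 173 ± 4.83 CPM and was not called. E130307A14Rik, end to end with Traf3ip2, which encodes the IL-17 receptor adaptor Act1, was also called without its gene, with log2 fold changes of 1.20 for the antisense RNA and −0.09 for Traf3ip2. Its ratio went from 5.62, 6.21 and 6.6 to 14.5, 12.8 and 18.7 counts per 100, with no overlap.

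For 2610020C07Rik and 4931406G06Rik the antisense RNA rose and the gene fell. 2610020C07Rik meets Gspt1, the translation termination factor eRF3a, and had 0.209, 0.255 and 0.215 counts per 100 counts of Gspt1 in WT against 0.836, 0.716 and 0.789 in Cnr2 KO-labelled libraries. The ratio differed by 1.77 on the log2 scale (SE 0.32, limma adjusted p = 0.000475), with the antisense RNA at 1.13 and Gspt1 at −0.61. 2610020C07Rik also had a WT mean under 1 CPM and was a member only through the other group. 4931406G06Rik went from 10.9 ± 1.55 to 19.8 ± 2.14 CPM, and 4932438H23Rik from 11.8 ± 1.62 to 7.86 ± 1.57 CPM, log2 fold changes of 0.84 and −0.61. Brip1os rose from 63.7, 72.3 and 66.1 to 102, 98.3 and 89.7 CPM (log2 fold change 0.51, SE 0.06, edgeR adjusted p = 1.02e-06), while Ints2 within it had a log2 fold change of −0.23 and Med13 at its end one of 0.29, a call lost without replicate 1 of the other group. All of these pairs share exon bases.

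The ratio rose with the gene in Gm20658 and Vipr2 (a log2 difference of 1.76) and in Gm4610 and Bcar3 (1.67), as the antisense RNA rose more. For Gm9917 and Hyal2, a hyaluronidase gene, and for Gm31597 and Sult2b1, a sulfotransferase gene, the gene fell and the antisense RNA was not called (log2 fold changes of 0.40 and 0.05). Hyal2 went from 35.9 ± 0.341 to 18.0 ± 0.843 CPM, and Sult2b1 from 0.72 ± 0.123 to 0.281 ± 0.123 CPM. The call of Sult2b1 was lost without WT replicate 2, without replicate 2 or 3 of the other group, and under DESeq2. The ratio of Gm31597 to Sult2b1 lost its call in all 6 fits without 1 library, and that of Gm9917 to Hyal2 without WT replicate 2 or without replicate 1 of the other group.

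The ratio of Gm17590 to Cdk6, described above, fell by 1.23 on the log2 scale. 1110002L01Rik fell while both of its genes rose. It runs from Asxl2, a Polycomb-associated chromatin gene, to Kif3c, a kinesin motor gene. 1110002L01Rik shares 155 exon bases with Asxl2 and 2617 with Kif3c, so its values depend on how shared reads were divided. Its level was 11.2 ± 0.192 CPM in WT against 4.78, 5.82 and 5.43 CPM in Cnr2 KO-labelled libraries, with no overlap, with a log2 fold change of −1.07 (SE 0.13, adjusted p = 8.09e-07 by edgeR). Asxl2 and Kif3c both rose, by 0.49 and 0.59 on the log2 scale. 5830432E09Rik inside Ptpre, a receptor tyrosine phosphatase gene, was at 4.41, 4.58 and 3.22 CPM against 2.05, 0.961 and 1.44 CPM, a log2 fold change of −1.47 with no overlap, and Ptpre rose by 0.48. The 2 share 209 exon bases.

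For A530088E08Rik and Pglyrp2, a peptidoglycan recognition protein gene, the gene rose alone. Pglyrp2 went from 10.1 ± 1.09 to 75.0 ± 10.3 CPM (log2 fold change 2.86), the antisense RNA had a value of 0.40 that was not called, and the ratio difference was −2.47 (SE 0.28, limma adjusted p = 7.98e-06). Gnasas1, of the imprinted Gnas domain, had 0.249, 0.217 and 0.246 counts per 100 counts of Gnas in WT against 0.0971, 0.0707 and 0.144 in Cnr2 KO-labelled libraries, with Gnas at a log2 fold change of 0.56 and Gnasas1 at −0.61, the latter not called. A530088E08Rik shares 468 exon bases with Pglyrp2 and Gnasas1 988 with Gnas, and reads from those bases cannot be told apart. Gm27177, which reaches from Loxl2, a lysyl oxidase gene, to Entpd4b, had 0.315, 2.63 and 4.07 CPM in WT, and 0.359, 0.16 and 1.05 CPM in the other group. These values overlap, and its edgeR call (log2 fold change −2.19, or −3.17 without replicate 3 of the other group) was not shared by DESeq2 (adjusted p = 0.107). Gm27177 was a member only through its level in WT. Its ratio to Loxl2 lost its call without WT replicate 2 or 3 or without replicate 1 or 2 of the other group. Entpd4b has a near-identical copy, Entpd4, so its counts are uncertain.

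**Figure D5:**
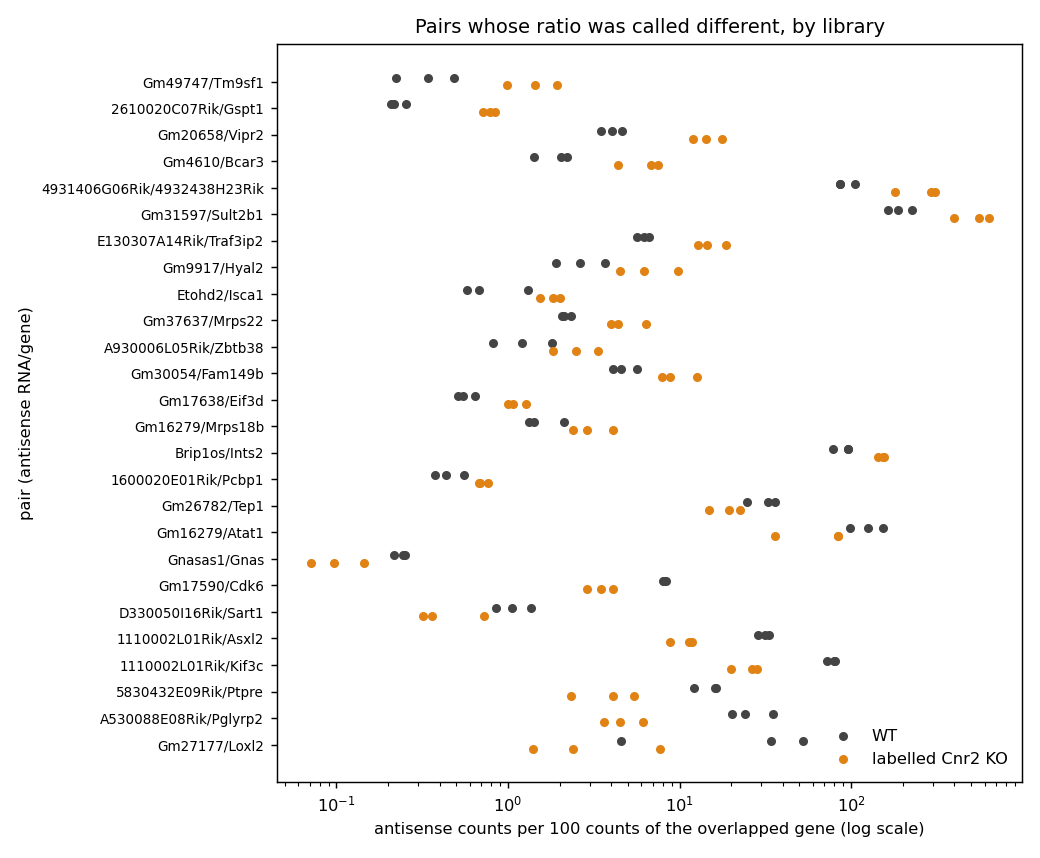
Antisense counts per 100 counts of the overlapped gene (log axis) in each library, for the 26 pairs whose ratio was called. The 16 upper pairs are higher in Cnr2 KO-labelled libraries and the 10 lower ones lower, and in Gm27177 with Loxl2 the groups overlap.

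From a chosen list of ILC2, cytokine, transcription factor and signalling genes, which does not hold Foxp3 or Ebi3, members overlapped Il5 and Lef1, and neither of those antisense RNAs was called. Gm16712, end to end with Ebi3, a cytokine subunit gene, was not called either (log2 fold change −1.02, adjusted p = 0.0643 by edgeR), while Ebi3 fell by 0.91. Gm12214 inside Il5 was at 2.73, 2.48 and 3.33 CPM in WT against 3.29, 3.31 and 2.88 CPM in Cnr2 KO-labelled libraries, with overlapping groups and a log2 fold change of 0.18 (SE 0.22, adjusted p = 0.485 by edgeR). Il5 had a log2 fold change of 0.02 and was not called either. All 417 exon bases of Gm12214 lie in exons of Il5, so its values are not a separate measure of an antisense RNA. Lef1os1 at Lef1, a transcription factor gene of lymphocyte development, had a log2 fold change of −0.03, while Lef1 fell by 0.24, a call lost without WT replicate 3. Kcnq1ot1 (29.6, 23.4 and 20.2 against 19.7, 18.3 and 25 CPM) and Rab10os (16.5, 18.2 and 13.9 against 16, 14.6 and 17.5 CPM) had overlapping groups.

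Genes that act on paired RNA or on nuclear noncoding RNA were taken from a list of 53, of which 46 were tested. Of these, 12 were higher, 23 lower and 11 not called, beside 33.1% higher and 33.2% lower over all genes, with a median log2 fold change of −0.19. The list was divided by role after its values were seen, so the counts are descriptions. All 10 tested subunits of the RNA exosome, the main 3′ to 5′ exonuclease complex, were lower, by 0.24 to 1.00 on the log2 scale (Exosc1 at −0.92 and Exosc10 at −0.24). Ddx58, Ifih1, Dhx58, Eif2ak2 and Zbp1, which encode nucleic acid sensors, were each higher, at 2.61, 1.55, 0.85, 1.06 and 2.33. Of 11 tested cofactors of the exosome and other nuclear decay genes, 2 were higher and 6 lower. Of 10 microRNA processing and Argonaute genes, 1 was higher and 4 were lower, and of 5 other binders of double-stranded RNA 2 were lower and 3 were not called. Adarb1, an RNA-editing enzyme, had −1.68 and Adar 0.19, both called. Their part in the levels of the antisense RNAs was not tested.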

How the data were processed

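RNA was counted per gene in 3 WT libraries and 3 libraries labelled Cnr2 KO. The deposited values are estimated counts that need not be whole, and the tools were DESeq2, STAR 2.7.8 and Partek 10.0 on build mm10, per the submitters' processing notes, which give no roles. How reads were counted is not given in the sources used here. Members, gene lists and tests were chosen with earlier results of these data known. Counts were rounded for tests. The main test was edgeR 4.0.16 in R 4.3.3 (quasi-likelihood, TMM, filterByExpr with minimum count 10 and minimum total 15, genotype as the only term), with Benjamini-Hochberg adjustment over all genes tested. The SE is approximate, the log2 fold change divided by the square root of F. Log2 ratios of overlapping pairs were compared with limma 3.58.1, adjusted over all overlapping pairs. Both tests were also run on simulated counts with known fold changes. That simulation gave all genes the same relative spread and no shared reads, so it need not hold for scarce or overlapping members. Positions and exons are from GENCODE M21 (GRCm38), matched for all 81 members, 6 by position only.

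Members were named by rule: the 12 largest called changes per direction without overlap of the groups (7 were found among the lower ones), the 8 most abundant, those at listed ILC2 and signalling genes, the 3 nearest the threshold on each side, and the 8 largest called ratio differences per direction. Other names were added after their values were seen. Alternatives were other scaling, filters, thresholds and membership levels, DESeq2 1.42.0, limma-voom, a replicate block, other definitions of overlap, and leaving out each library. Members of at least 1 CPM in both groups, and pairs without a fractional antisense count, were alternatives added after seeing the data. Some results of the list of genes acting on paired RNA are not reported here.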

Additional observations from a re-analysis of the deposited data

How the results depend on the processing

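No result changed sign while called. Against 19 members higher, 10 lower, 18 pairs in the same direction, 7 in opposite directions, and 16 ratios higher and 10 lower, a filter of 5 CPM in 3 libraries left fewer genes tested and gave 5, 3, 6, 4, 2 and 4. DESeq2 called 6 members lower. An adjusted p under 0.01 gave 6 members lower, 11 pairs in the same direction, and 8 ratios higher and 5 lower. Membership at 2 CPM gave 11 members higher and 9 pairs in the same direction, and at 5 CPM 4 members higher, 3 lower, 5 pairs in the same and 4 in opposite directions. Members of at least 1 CPM in both groups gave 11 higher. Pairs without exon overlap gave 5 in the same and 0 in opposite directions, with 5 ratios higher and 0 lower. Pairs without a fractional antisense count gave 6, 2, 9 and 3. These last settings hold fewer members or pairs by construction. Leaving out 1 library gave 17 to 19 members higher, 6 to 12 lower (6 without WT replicate 2), 13 to 16 pairs in the same direction, 7 to 8 in opposite directions, and 11 to 15 ratios higher and 8 to 10 lower. With the replicate block, counts were 17 and 9 members, 16 and 7 pairs, and 16 and 10 ratios, but same-numbered libraries deviated together at r of only 0.0779, 0.01 and 0.0606, so the numbers were not taken to pair them, and WT replicate 2 correlated best with another number (0.0153). Of the 109 named genes and pairs, 17 lost their call at least once, and 18 sign changes occurred where neither value was called. At 17.9 to 19.4 counts per CPM in 5 libraries, a member that was not called was not shown to be unchanged.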
